A study of Mus musculus with 4 samples.

Results

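Granzymes, perforin and the receptors and transcription factors that accompany them in cytotoxic lymphocytes were described by 10 genes, Gzma, Gzmb, Gzmk, Prf1, Nkg7, Ifng, Klrg1, Klrd1, Tbx21 and Eomes. They were chosen by symbol, and each matched 1 of the 55450 genes listed for every library. Their transcripts were followed through T cells, NK cells and other cells in 4 droplet single-cell RNA libraries from wild-type (WT) mice. The intestine gave a library after 1 week of NPs treatment and an untreated library, and the brain gave a library after 2 months of NPs treatment and an untreated library. The labels do not spell out NPs, the series text speaks of the colon where the sample labels say intestine, and BALB/c mice aged 5 weeks and ICR mice aged 6 months are named as sources without saying which tissue or library came from which. Each group had 1 library, so no test between groups was possible. All intervals printed are 95% counting intervals, which cover neither animals nor preparations. Those of levels, ratios and shares of transcripts take each counted transcript as independent, so they also leave out the spread between cells and can be too narrow. Treatment, animal and preparation cannot be told apart.

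Cytotoxic T cells and NK cells kill target cells by releasing granules that hold perforin and granzymes, a family of serine proteases. Perforin opens the target membrane, and granzymes that enter through it cleave proteins inside the target cell. The T-box factors encoded by Tbx21 and Eomes are known to drive much of this program, and interferon gamma is the main cytokine these cells secrete. In the gut wall, lymphocytes between epithelial cells are known for constant granzyme expression, while a healthy brain holds few lymphocytes.

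Among the effectors, Gzma (chr13:113093825-113100981, minus strand) encodes a tryptase that cleaves after basic residues, and Gzmk (chr13:113171608-113225908, minus strand) encodes a related tryptase from the same chromosome. Gzmb (chr14:56258838-56262260, minus strand) encodes the protease that cleaves after aspartate and can activate caspases. Prf1 (chr10:61297833-61304680, plus strand) encodes perforin, and Nkg7 (chr7:43437073-43438249, plus strand) encodes a granule membrane protein needed for efficient degranulation. Ifng (chr10:118441046-118445892, plus strand) encodes interferon gamma. Klrd1 (chr6:129591782-129598775, plus strand) encodes CD94, the partner of NKG2 receptors, and Klrg1 (chr6:122270596-122282882, minus strand) encodes an inhibitory receptor that binds cadherins. Tbx21 (chr11:97098071-97115331, minus strand) encodes T-bet, and Eomes (chr9:118478212-118486132, plus strand) encodes eomesodermin, which is also known in developing neurons. All positions are on GRCm38.

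The sequences directly upstream of the 5 granule genes are shown because their products act in or on the same granules. Each run is the 250 bases before the annotated start in RefSeq for GRCm38.p6, printed along the strand of the gene, with matches to 5 short motifs in capitals on either strand. The motifs were a T-box motif (GGTGTGA), a Runx motif (TGTGGT), an AP-1 motif (TGACTCA), a cyclic AMP response element (TGACGT) and an Ets motif (CAGGAAG).
Gzma, chr13:113100982-113101231, minus strand: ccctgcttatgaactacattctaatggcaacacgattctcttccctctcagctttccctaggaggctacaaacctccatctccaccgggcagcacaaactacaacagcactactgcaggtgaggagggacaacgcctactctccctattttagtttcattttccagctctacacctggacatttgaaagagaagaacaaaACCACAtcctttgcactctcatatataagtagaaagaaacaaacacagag
Gzmb, chr14:56262335-56262584, minus strand: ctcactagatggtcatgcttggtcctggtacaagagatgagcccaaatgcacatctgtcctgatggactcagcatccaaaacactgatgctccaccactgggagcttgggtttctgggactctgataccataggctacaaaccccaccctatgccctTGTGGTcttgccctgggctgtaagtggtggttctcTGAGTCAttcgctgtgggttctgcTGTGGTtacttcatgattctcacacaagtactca
Gzmk, chr13:113180966-113181215, minus strand: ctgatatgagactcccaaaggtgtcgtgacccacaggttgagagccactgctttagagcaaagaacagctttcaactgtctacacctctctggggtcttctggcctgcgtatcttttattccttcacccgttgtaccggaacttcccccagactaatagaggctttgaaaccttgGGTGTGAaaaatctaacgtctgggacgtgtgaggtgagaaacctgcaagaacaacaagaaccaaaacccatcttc
Prf1, chr10:61297586-61297835, plus strand: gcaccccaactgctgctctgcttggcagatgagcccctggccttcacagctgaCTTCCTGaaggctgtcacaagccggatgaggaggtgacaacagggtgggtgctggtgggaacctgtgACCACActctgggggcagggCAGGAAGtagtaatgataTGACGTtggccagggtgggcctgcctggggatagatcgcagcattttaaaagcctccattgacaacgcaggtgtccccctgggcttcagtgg
Nkg7, chr7:43436888-43437137, plus strand: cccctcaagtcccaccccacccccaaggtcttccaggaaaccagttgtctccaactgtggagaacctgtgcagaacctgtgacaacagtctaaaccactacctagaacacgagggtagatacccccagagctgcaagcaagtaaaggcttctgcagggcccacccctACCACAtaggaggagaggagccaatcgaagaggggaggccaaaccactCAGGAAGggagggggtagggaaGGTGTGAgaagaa
No 2 matches overlapped. The T-box motif lay 75 bases before the start of Gzmk and 13 bases before that of Nkg7, both in the forward direction. Gzmb held the Runx motif at 93 and 34 bases before its start and a reverse AP-1 motif at 58 bases, and Gzma held a reverse Runx motif at 50 bases. Prf1 held a reverse Runx motif at 130 bases, the cyclic AMP response element at 92 bases and the Ets motif at 197 and 110 bases. Nkg7 also held a reverse Runx motif at 83 bases and the Ets motif at 35 bases. Over 32851 windows of the same length, 3.33% held the T-box motif, 14.0% the Runx motif, 4.46% the AP-1 motif, 6.47% the response element and 10.8% the Ets motif, so several of these short words are common, and a match describes letters only. The RefSeq start used here is not always the start of the gene span given above. The Gzmk window lies inside its span, and the Nkg7 and Prf1 windows reach into theirs. The T-box and Ets matches of Nkg7 lie inside its span. The Gzmb window lies upstream of its span with a gap between them. Of the 10 genes, 8 had an entry in the promoter table.

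The libraries differed before any gene was read. The intestinal libraries held 19918 barcodes with NPs and 20368 untreated, and 46.5% of barcodes with NPs against 16.7% untreated had over 20% mitochondrial counts and were left out. Cells kept were 10556 with NPs and 16855 untreated in the intestine, with medians of 6277 and 2464 unique molecular identifiers (UMIs, the counted transcripts). In the brain 11942 cells with NPs and 11333 untreated were kept, with medians of 4614 and 4996 UMIs. Epithelium made 89.0% of kept intestinal cells with NPs and 35.7% untreated, and Hoxb13, a gene of the distal gut, had 18.02 CPM (UMIs of a gene scaled to the same total in every sum of cells) in NPs epithelium against 351.1 CPM in untreated epithelium. Barcodes left out in the intestine held Gzma at 6.38 CPM with NPs and 217 CPM untreated. Pairs of libraries shared 35 to 104 barcodes, at most 0.605% of a library. Clusters were called T cell-like or NK cell-like from marker genes, without the 10 genes, and are written T cells and NK cells here.

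T cells numbered 259 with NPs and 2775 untreated in the intestine, and 391 with NPs and 153 untreated in the brain. As shares of kept cells these were 2.45% (2.17% to 2.77%) with NPs against 16.5% (15.9% to 17.0%) untreated in the intestine, and 3.27% (2.96% to 3.61%) with NPs against 1.35% (1.15% to 1.58%) untreated in the brain. NK cells numbered 80 with NPs and 134 untreated in the intestine, and 29 with NPs and 30 untreated in the brain. Different sub-clusters held the intestinal T cells of the 2 libraries. Sub-cluster 7 held 200 of the 259 NPs cells and 3 untreated cells. Set against whole-tissue clusters it was led by Cd3g, Trac and Cd28, and set against other lymphocytes by the epithelial genes Car1, Retnlb and Muc2. The untreated T cells lay mostly in sub-clusters of CD8-like, naive-like and gamma delta-like cells. A list of 10 absorptive epithelial markers summed to 2514 CPM in NPs T cells against 183 CPM in untreated T cells, and 8 goblet markers to 2721 CPM against 534 CPM. In NK cells the same lists summed to 1590 and 2118 CPM with NPs, against 195 and 648 CPM untreated. No marker of either list was at 0 in T cells of either library. The part of epithelial transcripts in the results below was not tested.

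Most transcripts of the granule genes lay in T and NK cells. T cells held 68.1% and NK cells 21.2% of intestinal Gzma UMIs with NPs, against 80.0% and 3.62% untreated. For Gzmb the shares were 81.0% in T cells and 8.65% in NK cells with NPs, against 80.5% and 1.99% untreated. In the brain, NK cells held 54.1% of Gzma UMIs with NPs and 72.6% untreated, although they were only 29 and 30 cells. T cells held 43.1% of brain Gzma UMIs with NPs and 24.8% untreated.

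**Figure D1:**
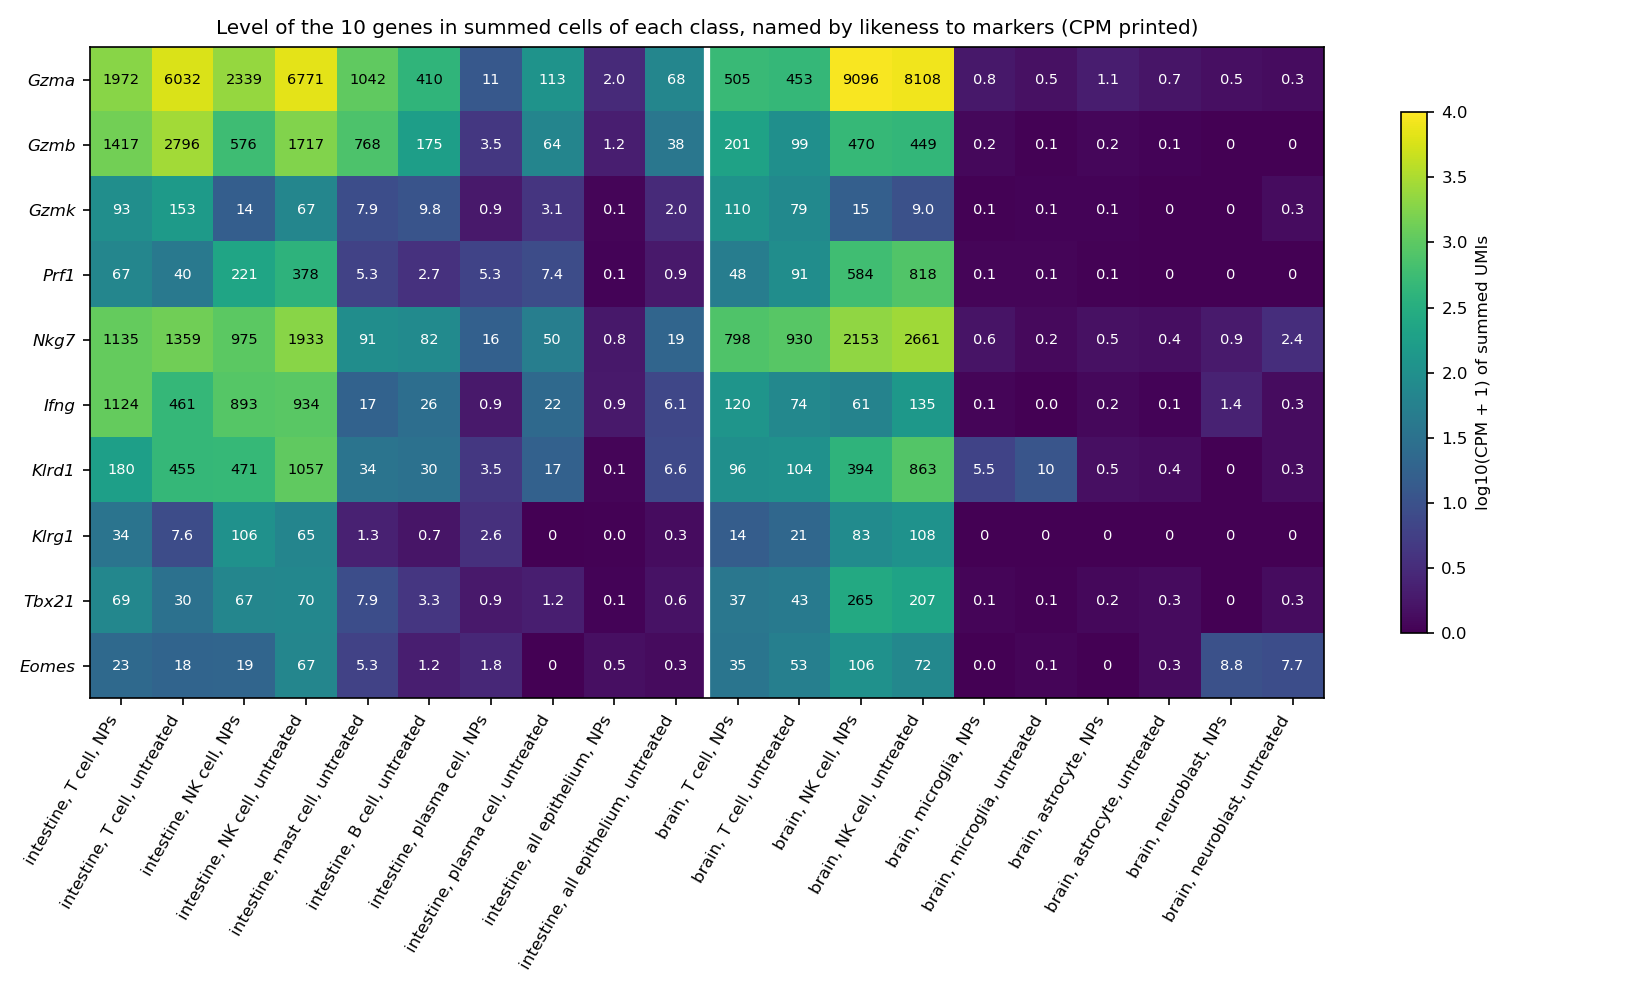
Levels of the 10 genes (down the side) in summed cells of each class and library (along the bottom), coloured by log10(CPM + 1) with the CPM printed in each field and classes named by likeness to markers. Gzma is brightest in brain NK cells at 9096 CPM with NPs and 8108 CPM untreated, and Ifng in intestinal T cells with NPs at 1124 CPM.

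Levels were ordered over 54 sums of a class in a library. Gzma was highest in brain NK cells, with 9096 CPM (8588 to 9625) with NPs and 8108 CPM (7587 to 8655) untreated, and these 2 intervals overlapped. Untreated intestinal NK cells at 6771 CPM and untreated intestinal T cells at 6032 CPM came next. Gzmb and Gzmk instead had their highest sums in untreated intestinal T cells, at 2796 CPM (2764 to 2828) and 153 CPM (145 to 160), apart from the next sum in both cases. Prf1, Nkg7 and Klrg1 were highest in untreated brain NK cells, at 818, 2661 and 108 CPM, and for each the interval overlapped that of the next sum. Klrd1 led in untreated intestinal NK cells at 1057 CPM, overlapping untreated brain NK cells at 863 CPM. Ifng was highest in NPs intestinal T cells at 1124 CPM (1051 to 1200), apart from untreated intestinal NK cells at 934 CPM. Tbx21 led in brain NK cells, with 265 CPM with NPs and 207 CPM untreated, which overlapped. Eomes was the exception, with its highest sum of 373 CPM (309 to 446) in 31 untreated neuron-like brain cells.

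In intestinal T cells, interferon gamma and T-bet transcripts were higher with NPs while Gzma and Klrd1 transcripts were lower. A gene was measured where the library with the higher level had at least 20 UMIs, and it was counted as apart at 2-fold. Of the 9 genes measured 3 were higher and 2 lower, against 7.66% higher and 8.69% lower of 8402 genes measured in the same cells. The median log2 ratio of NPs over untreated was -0.26 for the 9 genes and -0.07 for all measured genes.

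Gzma, the tryptase, had 1972 CPM in NPs T cells (1563 UMIs) against 6032 CPM in untreated T cells (62258 UMIs), a ratio of 0.327 (0.311 to 0.344). The share of T cells with a Gzma UMI was 31.7% with NPs and 34.5% untreated, and 23.9% and 22.7% after thinning each cell to 500 UMIs. In epithelium, which should lack the gene, 1.53% of NPs cells and 22.8% of untreated cells had a Gzma UMI, at medians of 7274.5 and 2518.5 UMIs against 2658 and 3120 UMIs in T cells. The shares of T cells were close in value but stood against unlike epithelial shares, so they are not read as equal shares of expressing cells. The amount per positive cell differed, with means of 19.1 UMIs with NPs and 65.1 UMIs untreated. The part of free transcripts, from outside the cell, in the shares and in the counts per positive cell was not tested. Median Gzma counts among positive cells were 7 with NPs and 8 untreated, and the most in a cell was 233 with NPs and 1073 untreated. The medians were thus close while the means and the highest counts differed, and the top 1% of T cells held 29.3% of Gzma UMIs with NPs and 28.4% untreated.

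Gzmb had 1417 CPM with NPs against 2796 CPM untreated, a ratio of 0.507 (0.477 to 0.538) that fell short of 2-fold. A Gzmb UMI was found in 49.4% of NPs T cells and 42.6% of untreated T cells, against 1.17% and 16.3% of epithelial cells. Gzmk had 93.4 CPM with NPs against 153 CPM untreated, a ratio of 0.611 (0.478 to 0.772). All 3 granzymes thus had lower sums in the NPs library.

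The other granule genes were under 2-fold. Prf1, perforin, had 66.9 CPM with NPs against 39.7 CPM untreated, a ratio of 1.68 (1.24 to 2.24) under 2-fold. Nkg7, the granule membrane protein, had 1135 CPM with NPs against 1359 CPM untreated, in 65.3% and 64.4% of T cells against 0.755% and 10.7% of epithelial cells.

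Ifng had 1124 CPM in NPs T cells against 461 CPM in untreated T cells, a ratio of 2.44 (2.27 to 2.62). It was found in 46.7% of NPs cells and 29.9% of untreated cells, and in 27.8% and 12.4% after thinning, against 0.596% and 3.81% of epithelial cells before it. Tbx21, whose product is known to bind and activate Ifng, had 69.4 CPM with NPs against 29.6 CPM untreated, a ratio of 2.35 (1.73 to 3.14). The cytokine and this factor were both more frequent as well as higher, with Tbx21 in 17.4% of NPs cells and 9.26% of untreated cells.

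Klrg1 had 34.1 CPM with NPs against 7.56 CPM untreated, a ratio of 4.51 (2.80 to 7.06) from 27 and 78 UMIs. The 27 NPs UMIs lay in 12 cells, with 48.1% of them in the top 1% of cells. A Klrg1 UMI was found in 4.63% (2.42% to 7.95%) of NPs cells and 2.13% (1.62% to 2.73%) of untreated cells, and these intervals overlapped. The ratio thus rests on few NPs cells. Klrd1, CD94, had 180 CPM with NPs against 455 CPM untreated, a ratio of 0.396 (0.333 to 0.468). The 2 receptors thus stood on opposite sides, and a Klrd1 UMI was found in 26.3% of NPs cells and 47.3% of untreated cells, against 0.149% and 4.44% of epithelial cells. Eomes, the gene under the 20-UMI minimum, had 22.7 CPM with NPs (18 UMIs) against 18.2 CPM untreated, with an interval of the ratio from 0.723 to 2.02.

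None of these calls held without sub-cluster 7. Then 59 NPs T cells were left, and none of the 8 genes then measured was at 2-fold. Gzma had a log2 ratio of -0.67, Klrd1 -0.63 and Ifng 0.72, each in the same direction as before. Klrg1 had 4 UMIs with NPs and 77 untreated, a ratio of 2.31 (0.614 to 6.15), and Tbx21 had 13 and 301 UMIs, a ratio of 1.92 (1.01 to 3.33). Gzmk turned to a log2 ratio of 0.10, and Prf1 to -0.36 from 7 NPs UMIs. In sub-cluster 7 itself the 200 NPs cells had 1220 CPM Gzma, 1244 CPM Gzmb and 1277 CPM Ifng.

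**Figure D2:**
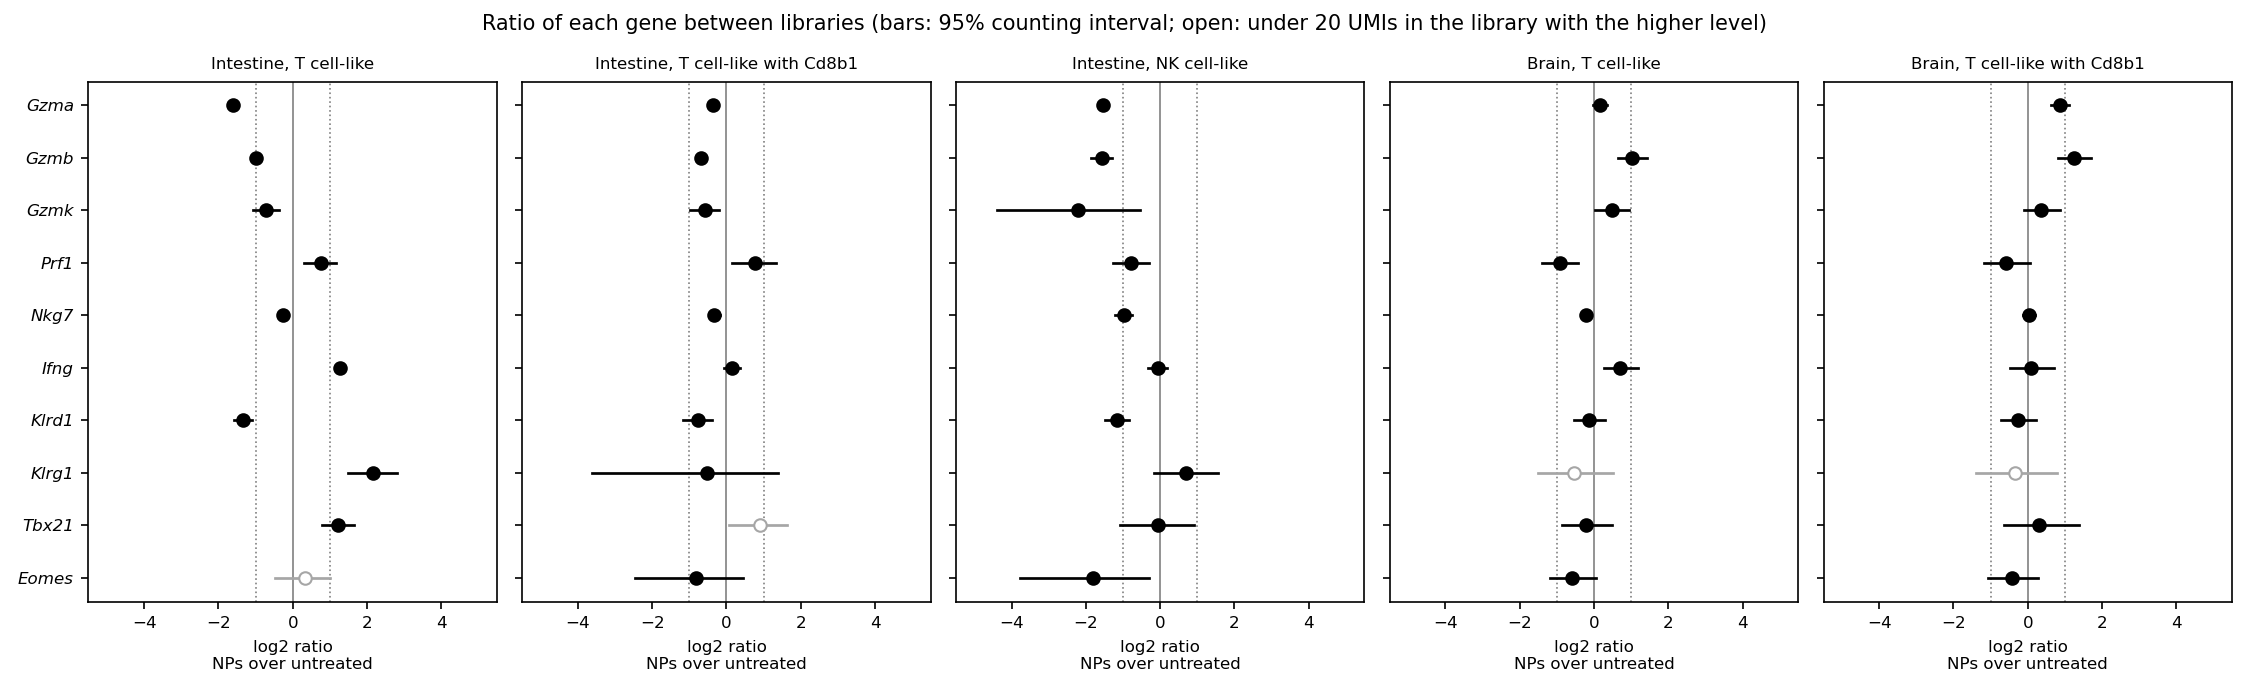
Log2 ratio of NPs over untreated for each gene in intestinal T cells, intestinal T cells with Cd8b1, intestinal NK cells, brain T cells and brain T cells with Cd8b1, with points for the ratio, open points for genes under 20 UMIs in the library with the higher level, bars for the 95% counting interval and dotted lines at 2-fold. Gzma sits at -1.61 in intestinal T cells and -1.53 in intestinal NK cells but at -0.37 in intestinal T cells with Cd8b1, and Gzmb sits at 1.26 in brain T cells with Cd8b1.

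The makeup of the intestinal T cells also differed between libraries. When they were split by their own receptor transcripts, a split made after the data were seen, cells with Cd8b1 and no Cd4 made 22.8% of NPs T cells and 34.0% of untreated ones. Cells with Cd4 alone made 25.1% with NPs and 11.3% untreated, cells with Cd8a but no Cd8b1 7.34% and 16.8%, and cells with none of the 3 transcripts 44.0% and 37.4%.

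Among cells with Cd8b1, the chain of conventional CD8 T cells, none of the 9 genes measured was 2-fold apart between 59 NPs cells and 943 untreated cells. Of 5451 genes measured there, 4% were higher and 13% lower. Sub-cluster 7 held 41 of the 59 NPs cells and 1 untreated cell. Gzma had 5111 CPM with NPs against 6605 CPM untreated, a ratio of 0.774 (0.730 to 0.819), in 61.0% and 63.0% of cells. Gzmb had 2813 CPM with NPs against 4566 CPM untreated, a ratio of 0.616 (0.570 to 0.665), in 79.7% and 75.0% of cells. In both libraries most Cd8b1 cells therefore carried both granzymes. Gzmk was found in 45.8% of NPs and 56.3% of untreated cells. Ifng had 853 CPM with NPs against 765 CPM untreated, a ratio of 1.12 (0.963 to 1.28), in 57.6% and 55.8% of cells. Ifng was thus close between libraries in Cd8b1 cells.

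Among cells with Cd4, the co-receptor of helper T cells, 4 of the 5 genes measured were higher with NPs and none lower, where 6.02% of 3869 genes were higher and 13.8% lower. Sub-cluster 7 held 53 of the 65 NPs cells and no untreated cell. Ifng had 2280 CPM in 65 NPs cells against 666 CPM in 313 untreated cells, a ratio of 3.42 (3.04 to 3.84). It was found in 64.6% of NPs cells and 24.6% of untreated cells, and in 46.2% and 12.1% after thinning. Ifng was therefore both more frequent and higher in the NPs Cd4 cells. Nkg7 had 1121 CPM with NPs against 383 CPM untreated, a ratio of 2.93 (2.49 to 3.44), in 63.1% and 22.7% of cells. Klrd1 had 126 CPM with NPs against 35.7 CPM untreated, a ratio of 3.52 (2.07 to 5.92). Gzma had 326 CPM with NPs against 47.9 CPM untreated, a ratio of 6.80 (4.68 to 9.96) from 70 and 51 UMIs. The untreated Gzma level there was below the 68.2 CPM in untreated epithelium, a class that should lack the gene, while the NPs level was above the 2.00 CPM in NPs epithelium. Gzmb had 642 CPM with NPs against 426 CPM untreated, a ratio of 1.51 (1.24 to 1.83). Tbx21 had 18 UMIs with NPs and 19 untreated, 83.8 against 17.8 CPM, and was under the 20-UMI minimum, as were Gzmk, Prf1, Klrg1 and Eomes. In the 12 NPs cells outside sub-cluster 7, too few for a call, Ifng was at 1375 CPM and Nkg7 at 815 CPM, against the same 666 and 383 CPM untreated. Gzma and Klrd1 had 3 UMIs each there, at 48.0 CPM, against 47.9 and 35.7 CPM untreated.

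In cells with none of Cd8a, Cd8b1 and Cd4, 1 of the 6 genes measured was higher and 4 lower between 114 NPs cells and 1037 untreated cells, against 5.89% higher and 14.4% lower of 5519 genes. Sub-cluster 7 held 93 of these NPs cells and 2 untreated cells. Gzma had 669 CPM with NPs against 4616 CPM untreated, a ratio of 0.145 (0.125 to 0.167). Klrd1 had 133 CPM with NPs against 443 CPM untreated, a ratio of 0.300 (0.210 to 0.416). Gzmb had 643 CPM against 1342 CPM, a ratio of 0.479 (0.410 to 0.557), and Gzmk had 2 UMIs with NPs and 53 untreated, a ratio of 0.413 (0.0488 to 1.57). The lower genes were thus the 3 granzymes and CD94. Ifng had 557 CPM with NPs against 187 CPM untreated, a ratio of 2.98 (2.48 to 3.56). Klrg1 had 19 UMIs with NPs and 25 untreated, a ratio of 8.32 (4.33 to 15.7), Prf1 14 and 59 UMIs, a ratio of 2.60 (1.34 to 4.71), and Tbx21 14 and 75 UMIs, a ratio of 2.04 (1.07 to 3.65), and all 3 were under the 20-UMI minimum. In the 21 NPs cells outside sub-cluster 7, Gzma had no UMI, Ifng was at 184 CPM against 177 CPM untreated and Klrd1 at 322 CPM against 441 CPM. In untreated tissue this gate held many gamma delta-like cells, described below, whose sub-clusters held 17 NPs cells.

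**Figure D3:**
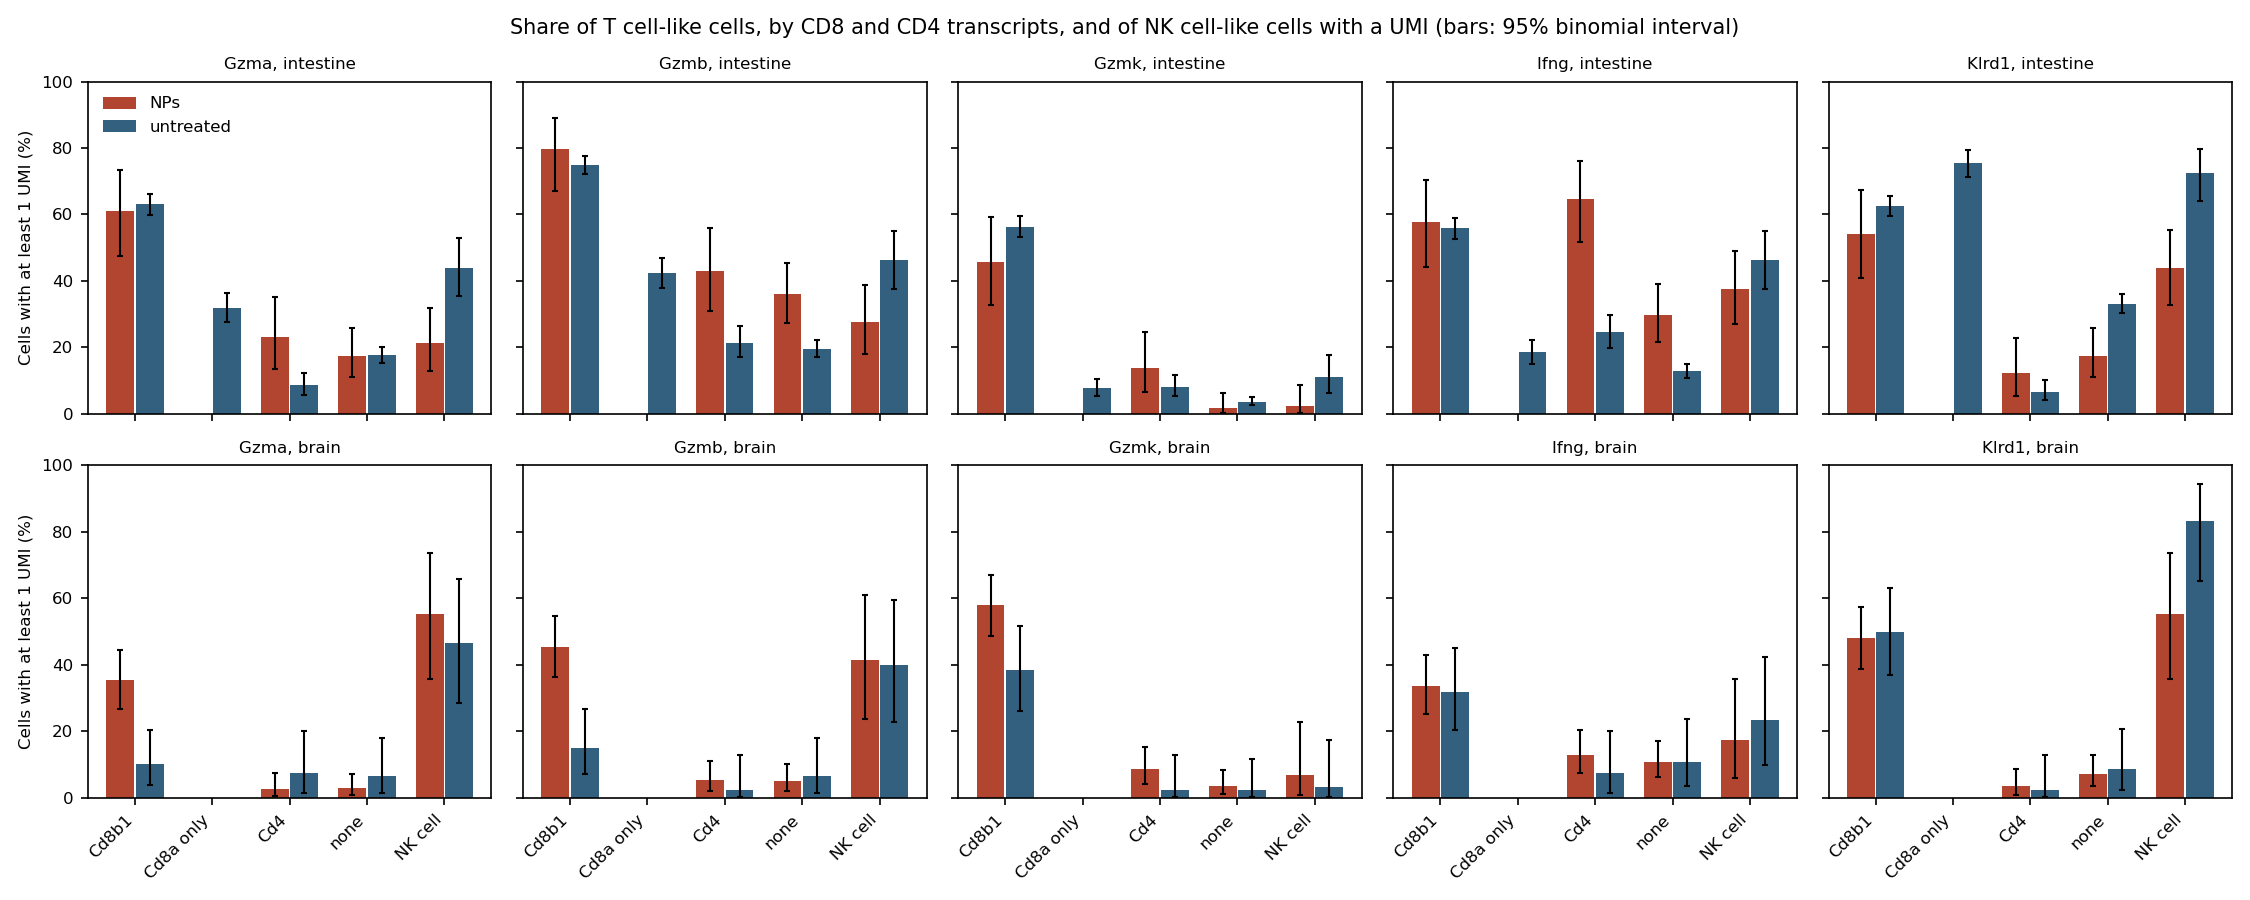
Share of cells with at least 1 UMI of Gzma, Gzmb, Gzmk, Ifng and Klrd1 in T cells split by Cd8b1, Cd8a and Cd4 transcripts and in NK cells, for intestine (top) and brain (bottom), with bars for the 95% binomial interval and no bar under 20 cells. Ifng stands at 64.6% of NPs and 24.6% of untreated Cd4 cells of the intestine, and Gzmb in 54 of 119 NPs and 9 of 60 untreated Cd8b1 cells of the brain.

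Intestinal NK cells had lower granzyme and CD94 transcripts with NPs. Of the 10 genes none was 2-fold higher and 5 were lower, against 6.96% higher and 9% lower of 2744 genes measured in the same cells, and the median log2 ratio was -1.08 for the 10 genes and -0.13 for all. The cells of both libraries formed 1 sub-cluster, led by Ncr1, Tyrobp, Fcer1g, Tmem176b, Csf2 and Tmem176a, with 4 of 8 NK markers raised. Set against whole-tissue clusters, Cxcr6, Il7r and Csf2 were also among its leading genes. Ncr1, which encodes the NK receptor NKp46, was at 509 CPM with NPs and 1202 CPM untreated. Il22, a cytokine of type 3 innate lymphoid cells, was at 783 CPM with NPs and 219 CPM untreated, and Gata3 at 370 and 144 CPM. Whether the class held innate lymphoid cells beside NK cells was not tested.

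Gzma had 2339 CPM in NPs NK cells (487 UMIs) against 6771 CPM in untreated NK cells (2812 UMIs), a ratio of 0.345 (0.313 to 0.380). It was found in 21.2% (12.9% to 31.8%) of NPs cells and 44.0% (35.5% to 52.9%) of untreated cells, and in 18.8% and 32.1% after thinning. A lower share of NK cells had a Gzma UMI in the NPs library, with medians of 16 and 19 UMIs among positive cells. In epithelium 1.53% of NPs cells and 22.8% of untreated cells had a Gzma UMI. The part of free transcripts, from outside the cell, in the NK cell shares was not tested.

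Gzmb had 576 CPM with NPs against 1717 CPM untreated, a ratio of 0.336 (0.274 to 0.408), in 27.5% and 46.3% of cells. Klrd1 had 471 CPM with NPs against 1057 CPM untreated, a ratio of 0.445 (0.354 to 0.555), in 43.8% and 72.4% of cells. Both genes were thus lower in level and in share of cells. In epithelium the shares were 1.17% with NPs and 16.3% untreated for Gzmb, and 0.149% and 4.44% for Klrd1. Gzmk had 3 UMIs with NPs and 28 untreated, a ratio of 0.214 (0.0416 to 0.692), and Eomes had 4 and 28 UMIs, a ratio of 0.285 (0.0726 to 0.815). With only cells of at least 1000 UMIs, or with each library clustered on its own, Klrd1 and Eomes were under 2-fold.

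The remaining members were under 2-fold. Nkg7 had 975 CPM with NPs against 1933 CPM untreated, a ratio of 0.504 (0.430 to 0.589). Prf1 had 221 CPM against 378 CPM, a ratio of 0.584 (0.411 to 0.816). Ifng and Tbx21 were close, with 893 CPM with NPs and 934 CPM untreated for Ifng and 67.2 and 69.8 CPM for Tbx21. Klrg1 had 106 CPM with NPs against 65.0 CPM untreated, with an interval of the ratio from 0.882 to 2.96.

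Of the 9 genes measured in brain T cells 1 was apart at 2-fold, Gzmb, which was higher with NPs. None of the 10 genes was 2-fold lower. Of 7322 genes measured there 8.43% were higher and 0.997% lower, so a count of 1 higher was near the share of all genes. The median log2 ratio was -0.13 for the 9 genes measured and 0.19 for all. Gzmb had 201 CPM in NPs T cells (380 UMIs) against 98.5 CPM in untreated T cells (67 UMIs), a ratio of 2.04 (1.57 to 2.68). It was found in 18.9% (15.2% to 23.2%) of NPs cells and 9.15% (5.09% to 14.9%) of untreated cells, and in 7.93% and 1.96% after thinning. The ratio lay just past 2-fold and fell under it in 4 of 14 other settings, with a log2 ratio of 0.70 without naive-like cells.

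Gzma had 505 CPM with NPs against 453 CPM untreated, a ratio of 1.11 (0.979 to 1.27), in 13.3% and 8.50% of cells. Without sub-cluster 8, 28 NPs and 4 untreated cells led partly by microglial genes, its log2 ratio was 0.77. Gzmk had 110 CPM with NPs against 79.4 CPM untreated, a ratio of 1.39 (1.03 to 1.91). Prf1 stood on the other side, with 48.1 CPM with NPs against 91.2 CPM untreated, a ratio of 0.527 (0.378 to 0.740), in 16.6% and 24.8% of cells. Without naive-like cells Prf1 and Eomes passed 2-fold as lower, with log2 ratios of -1.28 and -1.06. Nkg7 had 798 CPM with NPs against 930 CPM untreated, and Ifng 120 CPM against 73.5 CPM with a ratio of 1.63 (1.20 to 2.26). Klrd1, Klrg1 and Tbx21 had intervals of the ratio that held 1. A list of 8 microglial markers summed to 1957 CPM in NPs T cells and 1360 CPM in untreated T cells, none at 0, and its part in these values was not tested.

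The Gzmb difference was clearest in brain T cells with Cd8b1, 119 with NPs and 60 untreated. Gzmb had 438 CPM with NPs (310 UMIs in 54 cells) against 183 CPM untreated (51 UMIs in 9 cells), a ratio of 2.39 (1.77 to 3.28). Cells with a Gzmb UMI were 54 of 119 (36.2% to 54.8%) with NPs and 9 of 60 (7.10% to 26.6%) untreated, and 20.2% and 1.67% after thinning. Gzmb was the only one of the 9 genes measured at 2-fold there, where 9.85% of 4039 genes were higher and 0.668% lower. This count, too, was near the share of all genes. Gzmb stayed past 2-fold in all 13 other settings tried, with log2 ratios of 1.19 to 1.34. Gzma had 1144 CPM with NPs (810 UMIs in 42 cells) against 629 CPM untreated (175 UMIs in 6 cells), a ratio of 1.82 (1.54 to 2.15). The 42 NPs cells were 35.3% of their gate and the 6 untreated cells 10.0%, and after thinning the shares were 16.0% with NPs and 5.00% untreated. Gzmk was found in 58.0% of NPs cells and 38.3% of untreated cells, with a ratio of 1.29 (0.933 to 1.82). Nkg7 was nearly equal at 1554 CPM with NPs and 1527 CPM untreated, and Prf1 had 89.0 CPM against 133 CPM with an interval of the ratio from 0.439 to 1.03.

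The CD8-like sub-clusters of the brain were unevenly filled. Sub-cluster 4, with Itga1, Itgae and Cdh1 among its leading genes, held 63 NPs cells and 1 untreated cell and had 894 CPM Gzma, 445 CPM Gzmb and 292 CPM Gzmk with NPs. Sub-cluster 7 held no NPs cells and 32 untreated cells, with 327 CPM Gzma, 101.8 CPM Gzmk and 2 UMIs of Gzmb. In sub-cluster 2, which both libraries filled, Gzma was at 951 CPM in 48 NPs cells and 964 CPM in 33 untreated cells, found in 35.4% and 12.1% of them, and Gzmb at 536 and 364 CPM. The 22 cycling NPs cells had 1690 CPM Gzma. Sub-cluster 1, with 83 NPs cells led by Il17a, held no Gzma UMI.

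Brain NK cells were too few for a call, with 29 cells with NPs and 30 untreated, and their ratios are given as values. Gzma was found in 55.2% (35.7% to 73.6%) of NPs cells and 46.7% (28.3% to 65.7%) of untreated cells, with medians of 77 and 59.5 UMIs among positive cells, and the ratio of its levels was 1.12 (1.03 to 1.22). Prf1 was at 584 CPM with NPs and 818 CPM untreated, a ratio of 0.714 (0.520 to 0.977), and Nkg7 at 2153 and 2661 CPM, a ratio of 0.809 (0.685 to 0.955). Gzmb was at 470 CPM with NPs and 449 CPM untreated, with an interval of the ratio from 0.709 to 1.55. The summed levels of Prf1 and Nkg7 were lower with NPs by less than 2-fold, which is not a call in so few cells. A difference in Gzmb was not detectable at this depth. Klrd1 was at 394 CPM with NPs and 863 CPM untreated, a ratio of 0.457 (0.319 to 0.647), in 55.2% (35.7% to 73.6%) and 83.3% (65.3% to 94.4%) of cells. Ncr1 was at 1099 CPM with NPs and 1348 CPM untreated, and Il22 had no UMI in either library, unlike in the intestinal class.

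The 2775 untreated intestinal T cells showed how the effectors were divided among T cell kinds. In 727 CD8-like cells Gzma was at 5072 CPM in 64.5% of cells, Gzmb at 4587 CPM in 82.5%, Gzmk at 370 CPM in 58.3% and Ifng at 1007 CPM in 61.5%. In 698 gamma delta-like cells Gzma was at 7524 CPM but in only 22.5% of cells, Gzmb at 2051 CPM in 31.2%, Ifng at 136 CPM and Gzmk at 7.30 CPM. Klrd1 was found in 83.5% of the gamma delta-like cells, at 866 CPM. Gzma sums were thus high in both kinds of cell. The gamma delta-like share of 22.5% was not above the 22.8% of untreated epithelial cells with a Gzma UMI. It is therefore not read as the share of cells that express the gene. The sum of 7524 CPM was far above the 68.2 CPM of that epithelium.

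CD4-like sub-cluster 11, 98 cells led by Il10 and Tnfrsf4, had 2089 CPM Ifng in 72.4% of cells and 1636 CPM Gzmb in 73.5%, with 122 CPM Gzma. Cycling cells had high Gzma levels, with 10049 CPM in 199 cells of sub-cluster 5 and 17822 CPM in 76 cells of sub-cluster 12, which carried gamma delta genes. Naive-like cells, 775 in number, had 103 CPM Gzma in 9.94% of cells, a share below the 22.8% of untreated epithelial cells with a Gzma UMI, so the share is not read as expression, although 103 CPM is above the 68.2 CPM of that epithelium. Cells with Cd8a and no Cd8b1, a pattern of lymphocytes within the epithelium, had 10103 CPM Gzma in 31.8% of 465 cells and Klrd1 in 75.5%.

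**Figure D4:**
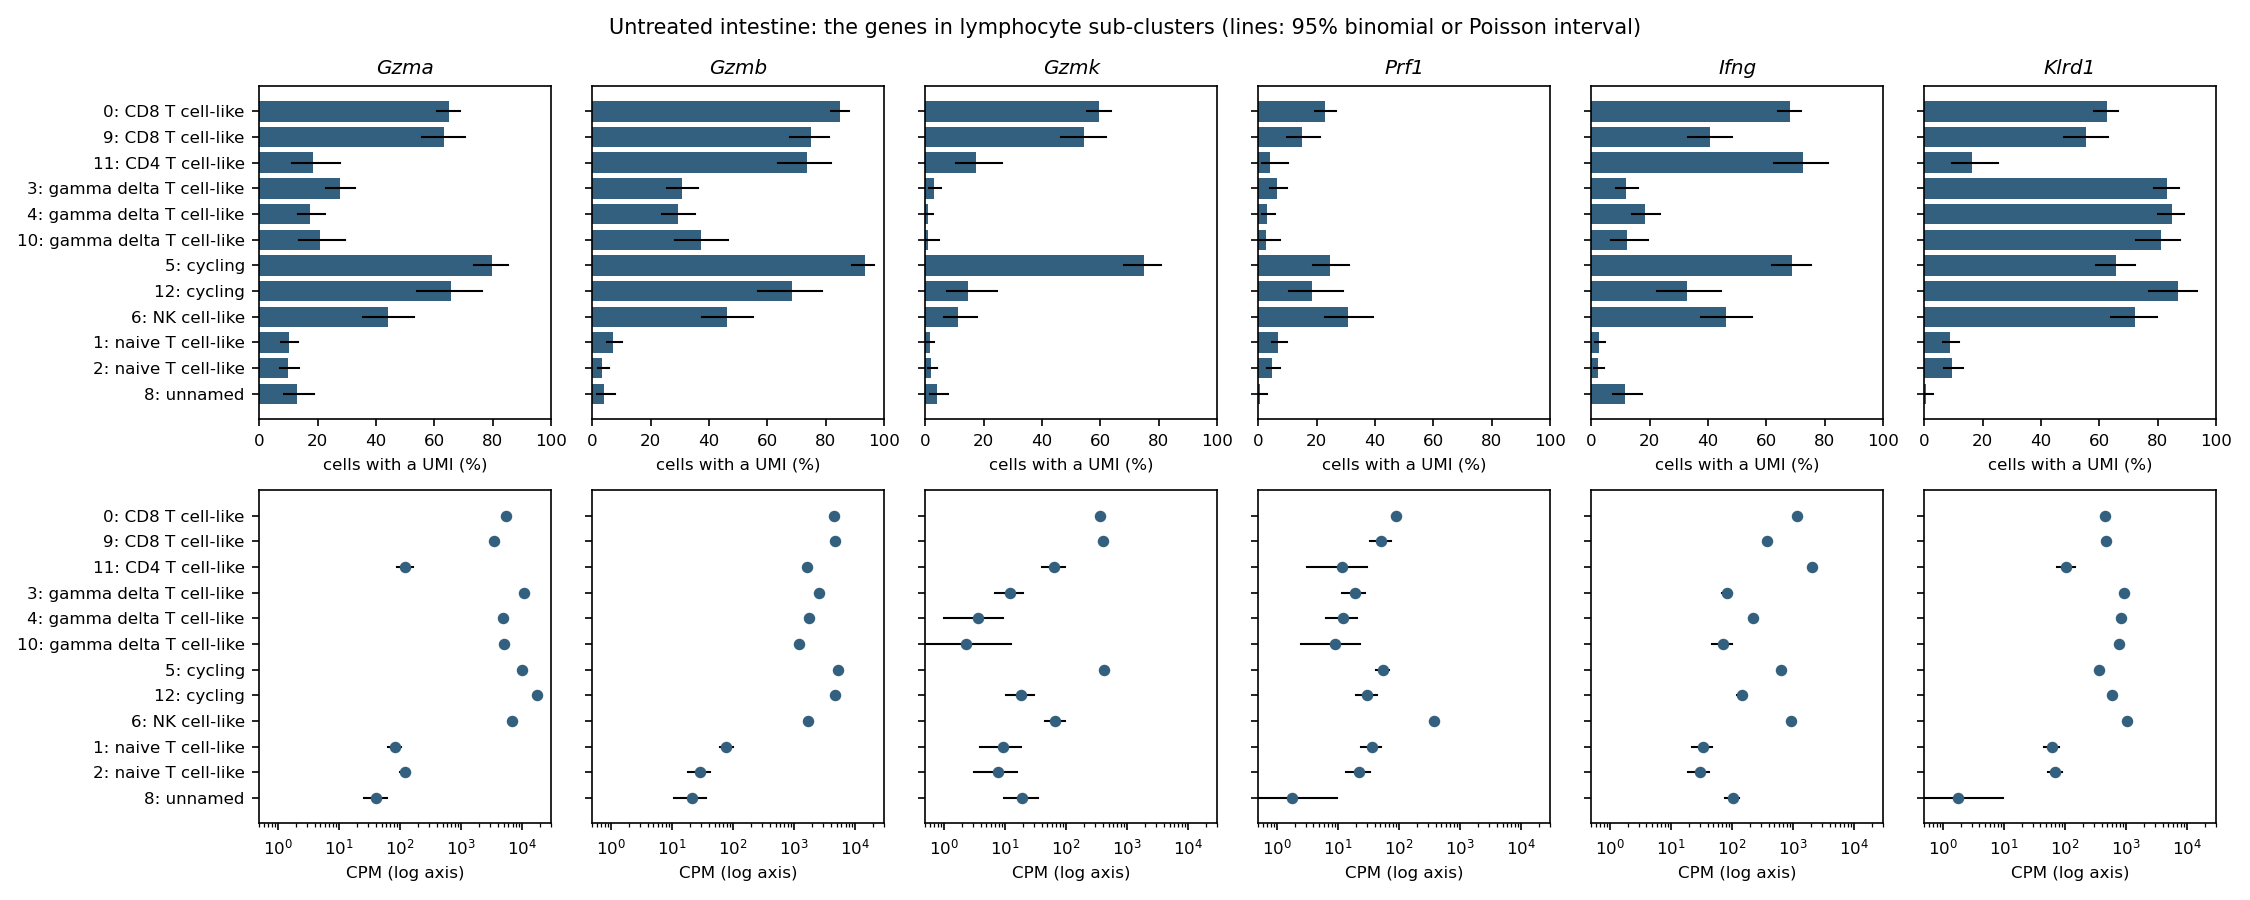
Share of cells with a UMI (top, %) and level (bottom, CPM on a log axis) of 6 genes in lymphocyte sub-clusters of untreated intestine, with lines for 95% binomial or Poisson intervals. Klrd1 stands at 866 CPM over the gamma delta-like cells and Gzmk at 370 CPM over the CD8-like cells and 7.30 CPM over the gamma delta-like cells.

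Effector transcripts were read together in the same cells. Of intestinal T cells with Cd8b1 and a Gzma UMI, 97.2% with NPs and 92.3% untreated also had a Gzmb UMI, against 79.7% and 75.0% of all cells of the gate. A Gzmk UMI was found in 52.8% of these Gzma cells with NPs and 70.9% untreated. In brain T cells with Cd8b1 and Gzma, 76.2% of the 42 NPs cells had Gzmb and 83.3% had Gzmk, and 3 and 4 of the 6 untreated cells did. Among brain NK cells with Gzma, 81.2% with NPs and 92.9% untreated had Prf1. A deeper cell has more chance of a UMI of every gene, and the part of depth in these shares was not tested.

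The number of the 10 genes with a UMI in a cell was also compared. Cells with none made 12.7% of NPs and 24.3% of untreated intestinal T cells, and 45.3% of NPs and 40.5% of untreated brain T cells. Naive-like sub-clusters held 4 NPs and 775 untreated intestinal T cells. Cells with at least 4 made 29.3% of NPs and 34.7% of untreated intestinal T cells, and 23.3% and 23.5% of brain T cells. They made 30.0% of NPs and 50.7% of untreated intestinal NK cells, and 65.5% and 63.3% of brain NK cells. NK cells with none made 17.5% with NPs and 10.4% untreated in the intestine, and 3.45% and 10.0% in the brain.

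Outside lymphocytes, the untreated intestinal library carried Gzma and Gzmb in classes that should lack them. The shares of epithelial cells with a UMI given above, far higher untreated than with NPs, stood at 0.287% with NPs and 8.76% untreated for Gzma after thinning. Untreated B cells, with a median of 1897.5 UMIs, had Gzma in 22.3% and Gzmb in 16.5%. The T and NK cell shares above are to be read against the values of their own library. In all epithelium 8 of the 10 genes were 2-fold lower with NPs and none higher, where 31.6% of 17302 genes were higher and 8.85% lower, with Gzma at 2.00 CPM against 68.2 CPM. In microglia and astrocytes of the brain, with medians of 4615 and 4919 UMIs, 0.444% of NPs and 0.305% of untreated cells had a Gzma UMI and 0.0946% and 0.0421% a Gzmb UMI, under the shares in brain T cells, whose medians were 3986 and 4004 UMIs.

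The part of free transcripts or of remaining doublets in these values was not tested. In the untreated intestine the ratio of Gzmb to Nkg7 UMIs differed among several classes. The share of Gzmb in the sum of both was 67.3% (66.8% to 67.7%) in T cells and 68.0% (66.7% to 69.4%) in B cells, but 56.5% (50.6% to 62.2%) in plasma cells, 62.4% (60.3% to 64.5%) in absorptive epithelium and 77.1% (74.0% to 80.1%) in goblet cells. In 305 untreated cells like mast cells or basophils it was 89.4% (86.8% to 91.7%), from 584 and 69 UMIs. Gzmb was at 768 CPM in 39.3% of these cells and Gzma at 1042 CPM in 27.2%. Mast cell granules are known to hold Gzmb in the mouse. Among the 163 of these cells with no UMI of T cell genes, 30.7% (23.7% to 38.4%) had Gzmb, and 13 cells had 5 or more Gzmb UMIs. Among cells chosen the same way Gzmb was found in 7.76% of 3107 B cells, 10.5% of absorptive epithelium, 11.98% of plasma cells and 15.2% of goblet cells, and at most 2 cells of each of these classes had 5 or more UMIs. By the share of cells with a UMI, Gzma did not set the mast-like cells apart. It was found in 24.5% of them and 25.7% of goblet cells, with 16.8% of plasma cells, 16.2% of absorptive epithelium and 12.4% of B cells. By high counts it did, with 5 or more Gzma UMIs in 11 of the 163 mast-like cells. Such counts were found in 6 of 460 goblet, 2 of 334 plasma, 10 of 2971 absorptive and 12 of 3107 B cells. The NPs library held 7 such mast cells, too few for a level.

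**Figure D5:**
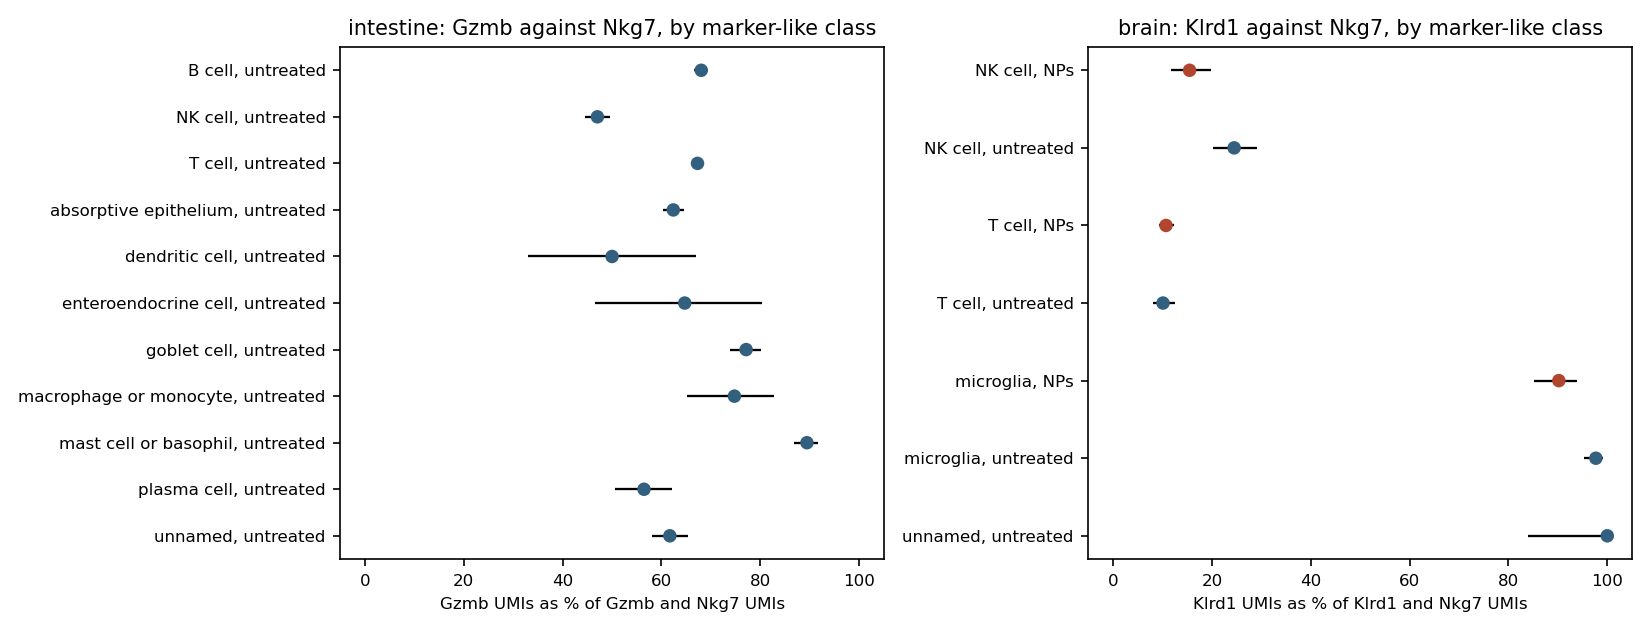
Left, Gzmb UMIs as a percent of Gzmb and Nkg7 UMIs by class in the untreated intestine. Right, Klrd1 UMIs as a percent of Klrd1 and Nkg7 UMIs by class and library in the brain, with points for the percent and lines for the 95% binomial interval. Mast cells at 89.4% stand apart from T cells at 67.3% and goblet cells at 77.1%, and microglia at 90.2% with NPs and 97.7% untreated stand apart from brain T cells.

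Klrd1 in the brain was not limited to lymphocytes. Microglia held 41.7% of brain Klrd1 UMIs with NPs and 58.6% untreated, at 5.49 CPM (184 UMIs) against 10.5 CPM (296 UMIs), a ratio of 0.525 (0.434 to 0.633). In microglia, 2.57% of NPs cells and 4.71% of untreated cells had a Klrd1 UMI. Klrd1 made 90.2% of Klrd1 and Nkg7 UMIs in NPs microglia and 97.7% in untreated microglia, a ratio that T and NK cells of the brain do not share. In the untreated intestine, Klrd1 was found in 50.0% of 20 cells like plasmacytoid dendritic cells.

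Eomes, too, had a home outside lymphocytes. Neuron-like cells held 46.5% of brain Eomes UMIs with NPs, in 15 cells, and 60.3% untreated, in 31 cells of which 54.8% had a UMI. Cells like neuroblasts or neural progenitors had 8.83 CPM with NPs and 7.75 CPM untreated. In the NPs intestine, epithelium held 50 of 75 Eomes UMIs, at 0.479 CPM against 0.297 CPM in untreated epithelium.

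Related genes were grouped by role and compared in the same classes, as counts of genes 2-fold apart. In intestinal T cells, 3 of 8 measured genes of Il12, Il15 and Il18 signalling were higher with NPs and none lower, against 7.66% higher and 8.69% lower of all genes, with a median log2 ratio of 0.37 against -0.07 for all genes. They were Il18r1 at 110 CPM with NPs against 45.3 CPM untreated, Il18rap at 85.8 against 39.5 CPM and Il12rb2 at 35.3 against 17.4 CPM, all receptor chains for cytokines known to induce Ifng. Without sub-cluster 7 none of the 3 was at 2-fold, with 34.5 against 45.3 CPM for Il18r1, 51.8 against 39.5 CPM for Il18rap and 12.9 against 17.5 CPM for Il12rb2. Of 8 genes of the interferon gamma receptor and response measured only Cxcl10 was higher, at 167 against 69.5 CPM, and at 82.0 against 69.6 CPM without sub-cluster 7. Among 8 killer cell and costimulatory receptors 2 were lower, Cd160 at 115 CPM with NPs against 492 CPM untreated and Cd244a at 27.8 against 116 CPM, and at 259 against 492 CPM and 60.4 against 116 CPM without sub-cluster 7.

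Of 9 transcription factors of effector lymphocytes 3 were higher and 3 lower in intestinal T cells, read against the same 7.66% and 8.69% of all genes, as are the counts that follow. Klf2, a factor of circulating T cells, was at 428 against 191 CPM and Tcf7, a factor of naive and memory T cells, at 88.3 against 198 CPM, and at 311 against 191 CPM and 142 against 198 CPM without sub-cluster 7. Of the 7 factors measured without sub-cluster 7, only Runx3 was at 2-fold. It was at 203 CPM with NPs against 444 CPM untreated, a ratio of 0.456 (0.335 to 0.608). Of 4 chemokines only Xcl1 was apart, at 271 CPM with NPs against 576 CPM untreated and 444 against 576 CPM without sub-cluster 7, while Ccl5 had 12681 and 13016 CPM. Of 14 genes for granule loading and exocytosis 1 was higher in T cells, and none of 3 granzyme inhibitors and 4 death ligands and receptors was apart. Of 2 other granzymes measured, Gzmm was lower with 1 UMI with NPs and 41 untreated, a ratio of 0.318 (0.00785 to 1.87).

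In intestinal NK cells, 5 of 7 receptors were lower, against 9% of all genes measured there, with a median log2 ratio of -1.28, among them Cd160 at 216 CPM with NPs against 556 CPM untreated. Of 8 granule loading genes 3 were lower. Cst7, an inhibitor of the proteases that activate granzymes, was at 33.6 against 157 CPM, Ctsc, the protease that activates granzymes, at 43.2 against 113 CPM, and Ctsw, a cathepsin of cytotoxic cells, at 533 against 1168 CPM. Ccl5 was at 3895 against 8803 CPM. In brain T cells, where 0.997% of all genes were lower and 8.43% higher, the chemokines Ccl3, at 32.8 CPM with NPs against 118 CPM untreated, and Ccl4, at 229 against 524 CPM, were lower. Tnf at 60.8 against 27.9 CPM, Id2 at 775 against 343 CPM and Socs1 at 75.0 against 30.9 CPM were higher there. The genes named for brain T cells are single ones out of 72 related genes. Counts per list are not given there, so they are not read as results about the lists.

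Over 51 sums of classes and libraries, the genes outside the 10 with the most similar pattern of level were listed as a description only, since the sums share libraries, depth and free transcripts. Gzma was most like Xcl1 (Pearson r of 0.949), Gzmb like Cd160 (0.917), Gzmk like Tcrg-C2 (0.952), Prf1 like Il2rb (0.974) and Nkg7 like Txk (0.973). Ifng was most like Klrc2 (0.965), Klrg1 and Tbx21 like Fasl (0.942 and 0.958), Klrd1 like Ctsw (0.971) and Eomes like Samd3 (0.886). Among the 10 genes, Gzma and Gzmb had an r of 0.964, Gzma and Nkg7 0.958 and Prf1 and Tbx21 0.950. Eomes was least like the others, with r from 0.541 to 0.694.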

How the data were processed

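Droplet single-cell RNA was counted in 4 mouse libraries with Cell Ranger 5.0.1 against GRCm38, per the submitters' processing notes, and the deposited values are raw UMI counts per gene and barcode. Barcodes under 500 UMIs or 200 genes, or over 20% mitochondrial counts, were dropped. Doublets scored with Scrublet in scanpy 1.11.5 were removed, 0.660% to 2.87% of the remaining barcodes of a library. Scrublet's own threshold marked 0% of these barcodes in the NPs intestine and 0.0354% in the untreated intestine. Both were under 0.5%, so barcodes with a score over 0.25 were removed in these libraries instead. Each tissue was clustered (2000 variable genes without the 10 genes and 72 related ones, 30 components, 15 neighbours, leidenalg 0.10.2 at resolution 1), and lymphocytes were clustered again. Clusters were named from marker genes. Counts were summed per class and library and scaled to CPM. Intervals are exact Poisson for a level, exact binomial for a share and conditional binomial for a ratio, at 95% (scipy 1.17.1). With no UMI in a group, 3 counts gave the bound. Levels needed 20 cells. Calls needed 50 cells in both libraries and 20 UMIs in the library with the higher level. The ratio and the 2-fold call were tested on simulated summed counts per gene, with known changes and no spread between cells. The summing over cells was not tested. With 1 library a group, no p-value was computed.

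The genes, related lists and markers were chosen with earlier results of these data known. The rule for naming lymphocyte sub-clusters, the splits by Cd8b1, Cd8a and Cd4, the removal of single sub-clusters and the ratios in brain NK cells were set after seeing these data. Most alike genes are the first by Pearson r on log2 CPM. The other settings tried are given in the closing section.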

Additional observations from a re-analysis of the deposited data

Results flagged for a closer look

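Of the genes 2-fold apart in T cells of either tissue, 4 lay on the other side of an equal level in the other tissue. On the log2 scale, the ratio of NPs over untreated in the intestine minus that in the brain was -1.77 for Gzma (ratios of 0.327 in the intestine and 1.11 in the brain) and -2.01 for Gzmb (0.507 and 2.04). It was 2.70 for Klrg1 (4.51 and 0.693) and 1.44 for Tbx21 (2.35 and 0.867). In the brain the counting intervals of Gzma (0.979 to 1.27), Klrg1 (0.351 to 1.43) and Tbx21 (0.555 to 1.39) held 1, and over the other settings the brain log2 ratio ran from -0.16 to 1.08 for Gzma and from -0.50 to 0.34 for Tbx21. In the intestine Gzmb was short of 2-fold, and without sub-cluster 7 Gzma, Klrg1 and Tbx21 were not counted as 2-fold apart. With 1 library a group the difference between tissues was not tested. The tissues also differ in the length of NPs treatment, 1 week in the intestine and 2 months in the brain, and this cannot be told apart from the tissue.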

How the results depend on the processing

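No paired analysis was possible because each group had 1 library. For the same reason no replicate could be left out. Counts of the 10 genes 2-fold apart moved by over 1.5 times as follows. In intestinal T cells, without sub-cluster 7 (a setting chosen after seeing the data) 0 genes were higher, against 3, and 0 were lower, against 2. With gates on marker genes in place of clusters 1 was lower, and 2 were higher in cells with Cd8b1, against 0. In intestinal NK cells 3 genes were lower, against 5, with a 50-UMI minimum per gene, with only cells of at least 1000 UMIs and with each library clustered on its own. In brain T cells 0 were higher, against 1, with the mean over cells, without mitochondrial, ribosomal and haemoglobin genes, without naive-like cells and with doublets kept. With each library on its own 2 were higher. Without naive-like cells 2 were lower, against 0. The causes were not tested. Differences in class share, NPs minus untreated in percentage points, were -28.5 with gates and -16.0 from 1000 UMIs for intestinal T cells. For intestinal NK cells they were 0.307 at most 10% mitochondrial counts, -0.299 with no such limit, -0.256 from 1000 UMIs and -0.691 at resolution 2, where NPs NK cells were too few for a ratio. None of these counts moved so with 20 UMIs in either library, also chosen after seeing the data. Ratios of single genes kept their side of 2-fold in 14 of 14 other settings for Klrg1 in intestinal T cells, 1 of them, without sub-cluster 7, on 4 NPs UMIs, in 13 of 14 for Gzma, Ifng and Tbx21 (the exception being without sub-cluster 7) and in 11 of 14 for Klrd1. In intestinal NK cells Gzma, Gzmb and Gzmk kept theirs in 11 of 11. Gzma, Ifng, Klrd1 and Nkg7 in Cd4 cells kept theirs in 13 of 13, which do not include the setting without sub-cluster 7, since 12 NPs Cd4 cells were left. Of log2 ratios of single genes under other settings, 678 stayed within the counting interval of the main value and 101 moved past it, and no called gene reversed. Depth limits every gene with fewer than 20 UMIs in a class.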
